A study of Homo sapiens with 6 samples.

Results

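The 10 genes described here encode the nucleases that trim broken DNA ends, the RecQ helicases, and the proteins that work beside the BLM helicase: MRE11, RBBP8, EXO1, DNA2, BLM, TOP3A, RMI1, RMI2, WRN and RECQL4. They were chosen by name, through the Ensembl transcript ID of each row of the count table, out of 22104 genes in all. Earlier results of these data were known when they were chosen. Of the 10 genes, 9 had a row and all 9 had enough counts to be tested, and RECQL4 was not analysed here. The RNA came from LNCaP, a human cell line grown from a prostate cancer that responds to androgen. One group carried a hairpin against RB (shRB, 3 libraries) and the other a control hairpin (shCON, 3 libraries). Both groups spent 72 h in a treatment that the labels call CDT and list as arresting the cell cycle, and the study's design text places the cells in hormone-deficient medium. A single hairpin label stands for each group, so an effect of RB loss cannot be told apart from an effect of that hairpin or of the cell population carrying it. Nothing in the labels tells whether replicate libraries are separate cultures or whether the cells are a clone, so the p-values below reflect library-to-library spread, which may be technical.

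When both strands of DNA break, cells can copy the lost sequence from the sister chromatid. The broken ends are first resected: MRE11, with its partners and with CtIP (the product of RBBP8, which was named for binding RB), makes the initial nick, and EXO1 or DNA2 then extends the single-stranded tail, DNA2 together with a RecQ helicase. After strand exchange, BLM, TOP3A, RMI1 and RMI2 act as one complex that separates the joined chromatids without crossing over, and inherited loss of BLM or WRN causes Bloom or Werner syndrome. RB restrains the E2F transcription factors, which drive many genes of DNA replication and repair in proliferating cells.

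RefSeq promoter windows (build GRCh38.p14, 250 bases before to 50 after the annotated start) were on hand for 6 of the 10 genes: EXO1, MRE11, RBBP8, BLM, RMI1 and TOP3A. Where a gene had several windows, the one nearest to the start of the counted transcript was used. The windows were searched on both strands for the E2F words TTTCCCGC, TTTGGCGC, TTTCGCGC, TTTGCCGC and TTCCCGCC and for the CHR words TTTGAA and TTCGAA, a word class bound by cell cycle repressor complexes. No word listed overlapped another in these windows. An E2F word stood in 4 of the 6 windows (1 in EXO1, 2 in BLM, 2 in RMI1 and 1 in TOP3A), and none of the listed words in those of MRE11 and RBBP8. A CHR word stood in 0 of the 6. For comparison, 5.6% of all 35093 windows and 8.3% of the 13701 windows of tested genes held an E2F word, and 16.4% and 11.3% a CHR word. The words were listed after the windows had been seen, and a match describes letters, not binding. The 4 windows with a match are shown because 3 of their genes (EXO1, BLM and TOP3A) were higher in shRB while the fourth (RMI1) did not pass the test. EXO1 is chr1:241847954-241848253 (plus strand), BLM chr15:90717096-90717395 (plus), TOP3A chr17:18314945-18315244 (minus) and RMI1 chr9:83980555-83980854 (plus). Each is written 5′ to 3′ on the gene's strand with the E2F words in capitals.
EXO1: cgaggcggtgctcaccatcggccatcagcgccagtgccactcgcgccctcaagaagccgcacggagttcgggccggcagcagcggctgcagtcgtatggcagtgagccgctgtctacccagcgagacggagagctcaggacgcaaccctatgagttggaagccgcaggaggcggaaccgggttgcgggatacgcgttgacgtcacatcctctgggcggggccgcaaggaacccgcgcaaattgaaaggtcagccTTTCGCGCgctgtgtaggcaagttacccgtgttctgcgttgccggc
BLM: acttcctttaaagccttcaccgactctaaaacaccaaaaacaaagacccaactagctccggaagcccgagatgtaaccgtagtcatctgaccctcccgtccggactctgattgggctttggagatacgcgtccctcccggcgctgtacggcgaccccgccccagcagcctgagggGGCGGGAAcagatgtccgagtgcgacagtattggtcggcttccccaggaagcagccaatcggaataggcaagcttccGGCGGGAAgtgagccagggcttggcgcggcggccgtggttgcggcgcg
TOP3A: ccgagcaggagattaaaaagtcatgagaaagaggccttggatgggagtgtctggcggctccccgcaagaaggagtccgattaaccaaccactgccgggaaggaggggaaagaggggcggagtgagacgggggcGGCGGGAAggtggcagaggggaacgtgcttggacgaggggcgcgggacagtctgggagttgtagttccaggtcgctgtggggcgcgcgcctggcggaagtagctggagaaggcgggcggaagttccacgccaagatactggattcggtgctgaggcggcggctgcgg
RMI1: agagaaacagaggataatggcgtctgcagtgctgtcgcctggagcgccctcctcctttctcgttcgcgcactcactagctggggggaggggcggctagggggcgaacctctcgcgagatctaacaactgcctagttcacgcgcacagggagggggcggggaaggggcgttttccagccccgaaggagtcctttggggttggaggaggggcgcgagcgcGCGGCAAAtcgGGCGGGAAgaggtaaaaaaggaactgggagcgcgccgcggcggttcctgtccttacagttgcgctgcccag
The EXO1 word TTTCGCGC began 4 bases after the annotated first base. The word TTCCCGCC lay on the opposite strand in BLM at −75 and at 2, and in TOP3A at −117. In RMI1, also on the opposite strand, TTTGCCGC lay at −32 and TTCCCGCC at −21.

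Total counts were 9780579 to 10898768 per library in shRB and 6115310 to 20091488 in shCON. Levels are given as CPM, counts scaled to the same normalized library total, and 1 read was worth at most 0.163 CPM. RB1 mRNA was 5.02 ± 1.06 CPM in shRB and 54.6 ± 1.93 CPM in shCON (SD, n = 3 each), so 9.18% of the control level was left. The luminal prostate markers KLK3, KLK2, HOXB13, TMPRSS2, FOLH1, KRT8 and KRT18 were expressed in every library, KLK3 at 575.4 ± 13.8 CPM in shRB and 421.3 ± 56.2 CPM in shCON (SD, n = 3 each). KLK3 and KLK2 were higher in shRB (edgeR adjusted p = 0.0027 and 1.1e-05). FOLH1 was lower, at 691.3 ± 72.7 CPM in shRB and 964.4 ± 55.9 CPM in shCON (edgeR adjusted p = 0.0013). HOXB13, TMPRSS2, KRT8 and KRT18 did not pass. Of 12 markers of basal, stromal, endothelial and leukocyte cells, 9 stayed under 1 CPM in every library. KRT5, COL1A2, PECAM1, CDH5, PTPRC and CD3E were at 0 throughout. Their summed level was 18.5 to 24.3 CPM in shRB and 30.5 to 36.2 CPM in shCON, almost all from COL1A1, VWF and CD68. Of these, VWF, an endothelial gene, was lower at 2.65 ± 1.00 CPM in shRB, against 9.75 ± 1.39 CPM in shCON (SD, n = 3 each; edgeR adjusted p = 3.5e-05). The part of these markers in the results below was not tested.

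In cells depleted of RB, transcripts of the long-range resection nucleases and of most of the BLM complex were more abundant. Those of the proteins that begin resection and of WRN did not pass the test. That division follows the threshold, and a difference between these sets of genes was not tested. EXO1, RMI2, BLM, DNA2 and TOP3A rose, 5 of the 9 tested genes (edgeR, Benjamini-Hochberg adjusted p under 0.05 over all 11712 rows tested). Over all rows 12.8% were higher by the same rule and 12.5% lower. These genes and the lists below were chosen with earlier results of these data known. Their counts are therefore no independent test against all rows. None of the 9 genes was lower by edgeR, with 0 lower at an unadjusted p under 0.05 and 0 lower by DESeq2 or limma-voom. The log2 fold change was above 0 in 8 of the 9, against 49.0% of all rows, and its median was 0.37 over the 9 genes and −0.01 over all rows. Groups did not overlap, with shRB higher, for the same 5 genes, a pattern seen in 21.0% of all rows, while 20.2% of rows had separate groups with shRB lower and none of the 9 genes did. DESeq2 called 3 of the 9 higher (EXO1, RMI2 and TOP3A). The log2 fold change was 0.47 ± 0.15 for DNA2, 0.17 ± 0.14 for MRE11 and 0.15 ± 0.19 for RBBP8 (SE). DNA2 passed in 9 of the 16 alternative fits, and both MRE11 and RBBP8 passed as higher without shRB 2. In RNA from bulk cultures, a larger share of cells expressing a gene and more RNA per cell cannot be told apart. Cell cycle genes were higher as well: 20 of 21 cell cycle genes listed rose, 0 fell, 0 were lower at an unadjusted p under 0.05 or by DESeq2 or limma-voom, and the median was 0.57. MCM2, a subunit of the replicative helicase, was at 224.3 ± 15.5 CPM in shRB and 124.5 ± 0.66 CPM in shCON, and PLK1, a mitotic kinase, at 119.8 ± 8.24 CPM in shRB and 68.4 ± 2.96 CPM in shCON (SD, n = 3 each). Antisense exons of genes not used here cover 30.7% of MCM2 and 7.0% of PLK1. TK1, which salvages thymidine for DNA synthesis, was at 303.6 ± 36.6 CPM in shRB and 171.9 ± 12.0 CPM in shCON. The log2 fold change of these 3 was 0.81 to 0.85, below that of EXO1 (1.06). It was above that of every other gene of the 9, the next being RMI2 at 0.78. These 3 were named for the smallest p of the 21 cell cycle genes. The median of that list, 0.57, lay below RMI2 and BLM (0.64). The part of the cell cycle in the rises below was not tested.

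**Figure D1:**
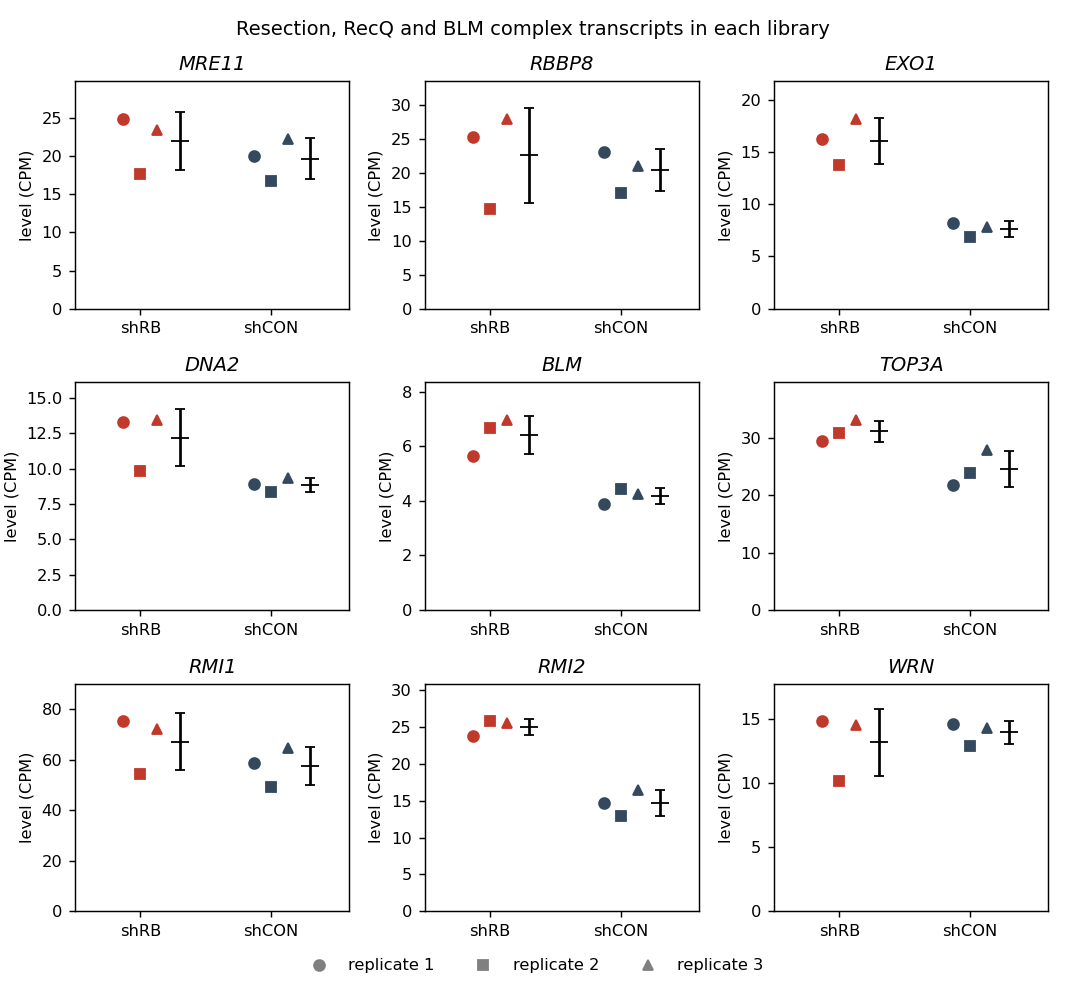
Level of each transcript in CPM (vertical axes, from 0) in the 3 shRB libraries (red) and the 3 shCON libraries (dark blue), with the replicate number as the symbol and the mean ± SD beside it. The groups separate for EXO1, DNA2, BLM, TOP3A and RMI2, and the square of shRB 2 lies below the other shRB libraries for MRE11, RBBP8, EXO1, DNA2, RMI1 and WRN.

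MRE11 (ENST00000393241, chromosome 11), the nuclease that makes the first cut beside a break, was at 24.8, 17.6 and 23.5 CPM in shRB 1 to 3, against 20.01, 16.8 and 22.2 CPM in shCON 1 to 3. The groups overlapped, and the second library of each was its lowest. The log2 fold change was 0.17 ± 0.14 (SE; edgeR adjusted p = 0.41), with a 95% interval of −0.13 to 0.48. RBBP8 (ENST00000327155, chromosome 18), the cofactor that switches that nuclease on, was at 25.3, 14.7 and 28.0 CPM in shRB 1 to 3 and at 23.2, 17.1 and 21.1 CPM in shCON 1 to 3. Here shRB 2 lay below every control library while shRB 1 and shRB 3 lay above all of them. RBBP8 changed by 0.15 ± 0.19 on the log2 scale (SE; edgeR adjusted p = 0.62), the widest error of the 9 genes, and its 95% interval was −0.27 to 0.56. Without shRB 2 both passed as higher, at 0.32 for MRE11 (edgeR adjusted p = 0.025) and 0.37 for RBBP8 (edgeR adjusted p = 0.0084), and without shRB 3 RBBP8 was at −0.03. With the trend on GC content removed, MRE11 was at 0.28 and passed. Exons of ANKRD49 on the opposite strand cover 4.9% of the MRE11 transcript and the microRNA gene MIR4741 covers 2.7% of RBBP8, so reads from those stretches cannot be assigned with certainty. The library kit named in the labels does not mark strand.

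EXO1 (ENST00000366548, chromosome 1), an exonuclease that digests the 5′ strand over long distances, was at 16.2, 13.8 and 18.2 CPM in shRB 1 to 3. In shCON 1 to 3 it was at 8.24, 6.83 and 7.84 CPM. The lowest shRB library thus stood well above the highest control. EXO1 was 2.09-fold higher in shRB, a log2 fold change of 1.06 ± 0.14 (SE; edgeR adjusted p = 0.00014), which ranked 141 from the top of the 11712 rows. It passed in all 16 alternative fits (log2 fold change 0.97 to 1.16). DNA2 (ENST00000358410, chromosome 10), the nuclease and helicase that works beside BLM or WRN on the alternative resection route, was at 13.3, 9.86 and 13.4 CPM in shRB 1 to 3, against 8.93, 8.33 and 9.30 CPM in shCON 1 to 3. The groups did not overlap, but shRB 2 stood only just above the highest control. DNA2 rose by 0.47 ± 0.15 on the log2 scale (SE; edgeR adjusted p = 0.033). This call was lost under DESeq2 (adjusted p = 0.072), with library totals alone, and on leaving out any one library other than shRB 2 (edgeR log2 fold change 0.40 to 0.50, adjusted p of 0.067 to 0.11). Without shRB 2 it was at 0.61.

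The BLM complex was followed through all 4 of its transcripts. RMI2 (ENST00000312499, chromosome 16), a small subunit that stabilizes the complex, had 23.7, 25.8 and 25.5 CPM in shRB 1 to 3 and 14.7, 12.95 and 16.5 CPM in shCON 1 to 3. The shRB libraries agreed closely and lay far from the controls. RMI2 was 1.71-fold higher in shRB, with a log2 fold change of 0.78 ± 0.12 (SE; edgeR adjusted p = 0.00032), and passed in all 16 alternative fits (0.70 to 0.85). BLM (ENST00000355112, chromosome 15), the helicase itself, had 62, 63 and 72 counts in shRB 1 to 3 (5.64, 6.68 and 6.95 CPM), against 79, 44 and 26 counts in shCON 1 to 3 (3.88, 4.42 and 4.24 CPM). The groups did not overlap, and BLM rose by 0.64 ± 0.17 on the log2 scale (SE; edgeR adjusted p = 0.013). It no longer passed under DESeq2 (adjusted p = 0.063), without shRB 3 (log2 fold change 0.57) or without shCON 1 (0.56).

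TOP3A (ENST00000542570, chromosome 17), the topoisomerase of the complex, was at 29.4, 30.9 and 33.02 CPM in shRB 1 to 3, against 21.7, 23.9 and 27.9 CPM in shCON 1 to 3. The groups were separate, though shCON 3 came close to shRB 1. TOP3A rose by 0.37 ± 0.11 on the log2 scale (SE; edgeR adjusted p = 0.030), and the call was lost without shRB 3 (0.32), shCON 1 (0.27) or shCON 2 (0.36). RMI1 (ENST00000325875, chromosome 9), the scaffold that joins TOP3A to BLM, was at 75.1, 54.2 and 72.2 CPM in shRB 1 to 3 and at 58.9, 49.4 and 64.5 CPM in shCON 1 to 3. The groups overlapped because shRB 2 fell among the controls. RMI1 changed by 0.23 ± 0.13 on the log2 scale (SE; edgeR adjusted p = 0.20), with a 95% interval of −0.04 to 0.50. It was at 0.37 and passed both without shRB 2 (edgeR adjusted p = 0.00035) and with the GC trend removed (edgeR adjusted p = 0.00024).

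WRN (ENST00000298139, chromosome 8), the RecQ helicase that also carries an exonuclease, was at 14.8, 10.2 and 14.6 CPM in shRB 1 to 3, against 14.7, 12.95 and 14.4 CPM in shCON 1 to 3. The groups overlapped, with shRB 2 the lowest of all 6 libraries. WRN changed by −0.08 ± 0.15 on the log2 scale (SE; edgeR adjusted p = 0.73), with a 95% interval of −0.40 to 0.24, and did not pass in any of the 16 alternative fits (−0.17 to 0.07). Antisense exons of a gene not used here cover 2.2% of the WRN transcript.

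**Figure D2:**
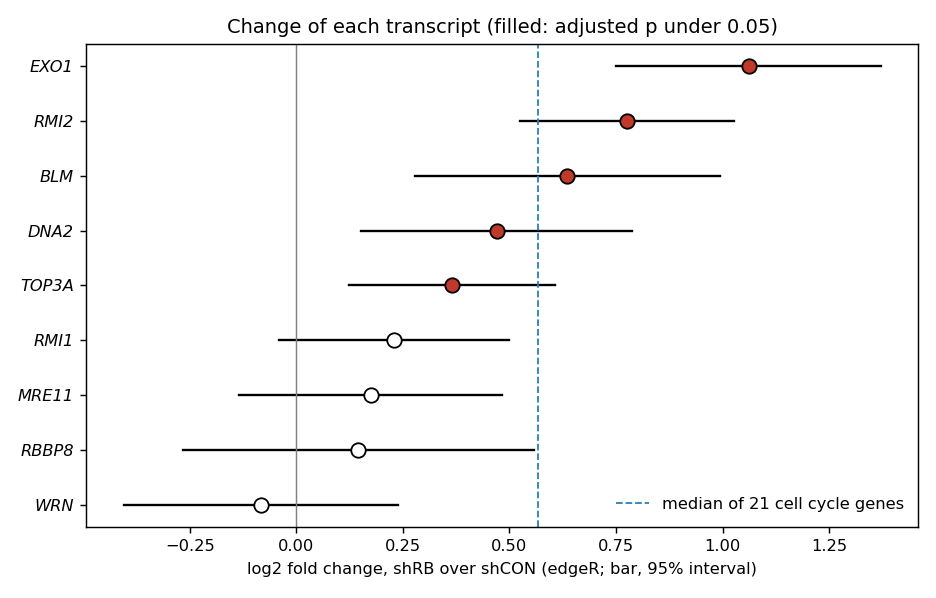
Log2 fold change of shRB over shCON for each gene (points) with its 95% interval (bars), filled where the edgeR adjusted p was under 0.05. EXO1 lies highest at 1.06 and WRN lowest at −0.08, and the dashed line marks the median of 0.57 over the 21 cell cycle genes.

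Ratios between genes of related function were taken within each library, so that library size cancels. Levels were divided by transcript length, and the 5 ratios were tested by an exact two-sided permutation test over libraries, whose smallest p with 3 against 3 is 0.1. The log2 ratio of EXO1 to DNA2 was 0.56, 0.76 and 0.71 in shRB 1 to 3 and 0.16, −0.01 and 0.03 in shCON 1 to 3, so that EXO1 was near DNA2 in the controls and above it in every shRB library. The difference was 0.62 ± 0.08 (SE; exact permutation p = 0.1, adjusted p = 0.125). The log2 ratio of RMI2 to RMI1 was −0.43, 0.16 and −0.27 in shRB 1 to 3 and −0.77, −0.70 and −0.73 in shCON 1 to 3. It differed by 0.55 ± 0.18 (SE; exact permutation p = 0.1, adjusted p = 0.125). Within the complex, the controls were almost uniform in this ratio and shRB 2 stood apart from the other shRB libraries. Without shRB 2 the difference was 0.38. A trend on GC content need not cancel in a ratio, and RMI2 is at 50.3% GC and RMI1 at 36.0%. The part of GC content in the ratios was not tested.

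BLM relative to TOP3A was 0.26 ± 0.10 higher in shRB on the log2 scale, and BLM relative to WRN 0.71 ± 0.25 higher (SE; exact permutation p = 0.1 and adjusted p = 0.125 for each). Groups did not overlap for either ratio, though for BLM over TOP3A shRB 1 (−2.725) lay close to shCON 2 (−2.775). For BLM over WRN, shRB 2 was highest at −0.616, against −1.399 in shRB 1 and −1.075 in shRB 3. BLM is at 41.2% GC and TOP3A at 55.2%, so the same limit holds for their ratio. The ratio of MRE11 to RBBP8 was 0.31, 0.59 and 0.08 in shRB 1 to 3 and 0.13, 0.31 and 0.41 in shCON 1 to 3. It overlapped between groups and differed by 0.05 ± 0.17 (SE; exact permutation p = 1, adjusted p = 1). No ratio could pass an adjusted p of 0.05 in this design.

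**Figure D3:**
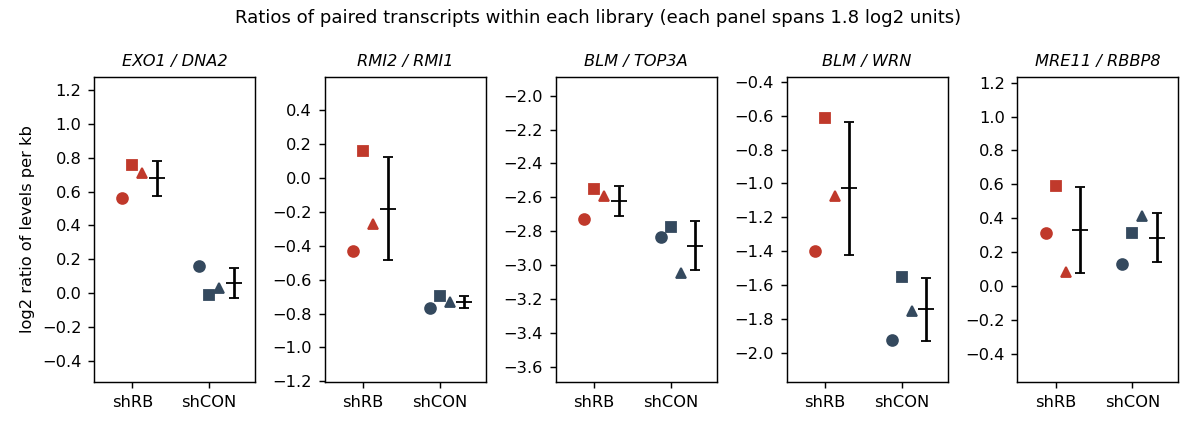
Log2 ratio of the length-corrected levels of 2 transcripts in each library (vertical axes, all panels spanning the same range), with mean ± SD beside the 3 shRB (red) and 3 shCON (dark blue) libraries. EXO1 over DNA2, RMI2 over RMI1, BLM over TOP3A and BLM over WRN separate the groups, and MRE11 over RBBP8 does not.

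Levels were compared between genes only after division by the length of the counted transcript (CPM per kb). In shRB the order was RMI1 (19.6 ± 3.32 CPM per kb), RMI2 (17.2 ± 0.75), MRE11 (8.44 ± 1.48), TOP3A (7.55 ± 0.44), RBBP8 (6.90 ± 2.13), EXO1 (4.62 ± 0.63), DNA2 (2.90 ± 0.48), WRN (2.53 ± 0.50) and BLM (1.22 ± 0.13; SD, n = 3). In shCON it was RMI1 (16.8 ± 2.23 CPM per kb), RMI2 (10.1 ± 1.21), MRE11 (7.55 ± 1.05), RBBP8 (6.21 ± 0.94), TOP3A (5.96 ± 0.76), WRN (2.68 ± 0.18), EXO1 (2.20 ± 0.21), DNA2 (2.10 ± 0.12) and BLM (0.79 ± 0.05; SD, n = 3). BLM was thus the scarcest of the 9 transcripts in both groups and RMI1 the most abundant on average, while WRN stood above EXO1 and DNA2 in shCON and below both in shRB, and TOP3A and RBBP8 changed places. Among neighbours in the shRB order, the library values overlapped between RMI1 and RMI2, from MRE11 through EXO1, and between DNA2 and WRN. In the shCON order they overlapped from MRE11 through TOP3A and between EXO1 and DNA2. Each of the 9 genes has 1 transcript ID in the table, and how reads of other isoforms were counted is not stated.

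The libraries of a group differed among themselves in a way that touched most of these genes. In shRB 2, 7 of the 9 genes lay below the mean of their group, RBBP8 by 0.56 and WRN by 0.35 on the log2 scale, while RMI2 and BLM lay slightly above it. In shCON 2, 8 of the 9 lay below. Across 11674 rows, which are not independent replicates, the deviation of a library from its group correlated with transcript GC content at a Spearman rho of 0.69 in shRB 2 and 0.52 in shCON 2, and at −0.54 to −0.09 in the other 4 libraries. The GC content of the 9 transcripts ran from 36.0% (RMI1) and 37.6% (DNA2) to 50.3% (RMI2) and 55.2% (TOP3A). Without shRB 2, 8 of the 9 genes passed as higher (all but WRN), beside 17.5% of all rows. With a smooth trend on GC content removed from each library, 7 passed (all but RBBP8 and WRN), beside 23.2% of all rows, and with the replicate number as a block 6 passed (RMI1 added), beside 18.8%. Without shRB 3 or without shCON 1, 2 passed (EXO1 and RMI2), without shCON 2, 3 (EXO1, BLM and RMI2), and without shRB 1 or shCON 3, 4 (EXO1, BLM, RMI2 and TOP3A). EXO1 and RMI2 therefore passed whichever library was left out. The part of GC content in the results was not tested beyond these fits.

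**Figure D4:**
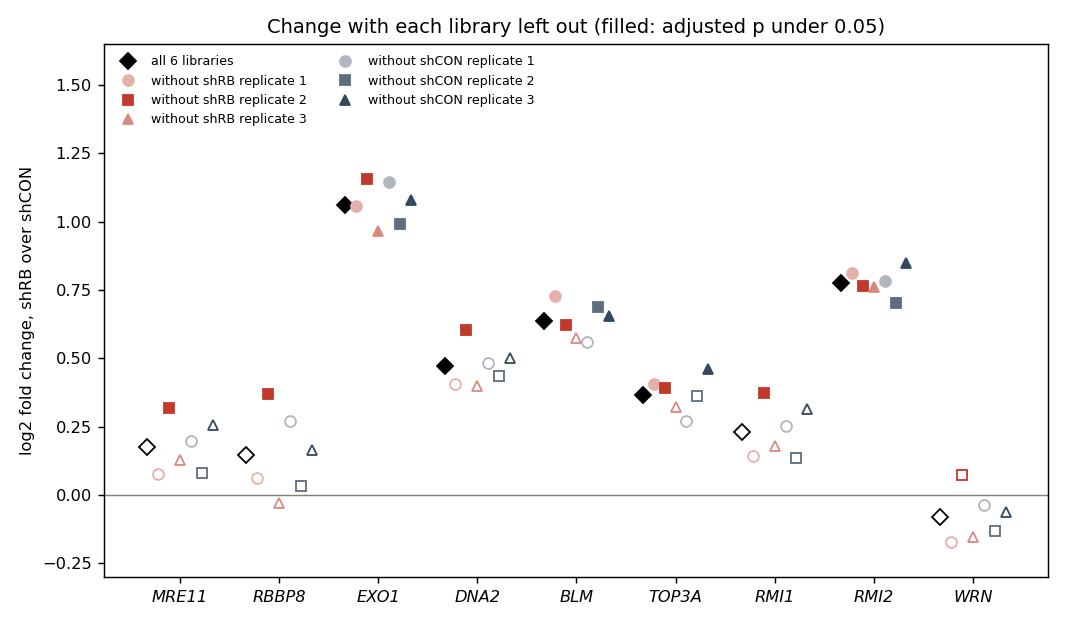
Log2 fold change of shRB over shCON for each gene (vertical axis) with all 6 libraries (diamond) and with each library left out in turn (other symbols), filled where the edgeR adjusted p was under 0.05. EXO1 and RMI2 are filled throughout, WRN nowhere, and MRE11, RBBP8 and RMI1 only without shRB 2 (dark red square).

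Over the 6 libraries, MRE11 and RMI1 had the most similar profiles among the 36 pairs of these genes (Pearson r = 0.988 on log2 CPM, and 0.999 for deviations from the group means). MRE11 is at 39.8% GC and RMI1 at 36.0%. For deviations, r was 0.985 between DNA2 (37.6% GC) and WRN (38.9%), and −0.461 between MRE11 and BLM (41.2%). The part of GC content in these correlations was not tested. EXO1 had an r of 0.954 with RMI2 and 0.922 with DNA2 across the same libraries, which share depth and composition. For deviations from the group means, which leave out the group difference, r was 0.33 with RMI2 and 0.86 with DNA2. The 5 rows outside these genes whose log2 CPM was most like that of EXO1 were SPIRE2, an actin nucleator, FADS1, a fatty acid desaturase, SLC44A1, a choline transporter, CCDC85A and TFRC, the transferrin receptor. Their r with EXO1 was 0.9951 to 0.9985 over the 6 libraries, and 298 of 11703 rows exceeded the lower mark of 0.95. CCDC85A was at 7.64 ± 1.21 CPM in shRB and 2.69 ± 0.35 CPM in shCON (SD, n = 3 each), and TFRC at 541.1 ± 30.2 CPM in shRB and 398.8 ± 14.6 CPM in shCON. Exons of other genes overlap those of FADS1 and CCDC85A. Around the rising genes, the median log2 fold change of the nearest 20 tested genes (10 on each side) was 0.02 around EXO1, 0.02 around RMI2, 0.17 around BLM, −0.08 around DNA2 and 0.00 around TOP3A.

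Other genes of the pathway were described by role. Of 26 tested strand exchange genes and their mediators, 6 rose and 20 stayed short of the threshold, beside 12.8% of all rows higher. The list's median log2 fold change was 0.31. RAD54L, a motor protein of strand exchange, was at 24.6 ± 1.72 CPM in shRB and 17.6 ± 0.39 CPM in shCON (SD, n = 3 each; edgeR adjusted p = 0.0051). PALB2, the bridge between BRCA1 and BRCA2, was at 13.8 ± 1.64 CPM in shRB and 9.88 ± 0.49 CPM in shCON (edgeR adjusted p = 0.016). The PALB2 call was lost without shRB 1, shCON 1 or shCON 2 (edgeR adjusted p of 0.051 to 0.083). RAD54L shares 25.9% of its exonic bases with LRRC41 on the opposite strand, so its count is uncertain. Rises in that list were also seen in HROB, MCM8 and PSMC3IP, named after their values were seen, and 54.4% of the exonic bases of PSMC3IP overlap MLX. None was lower by edgeR, DESeq2, limma-voom or at an unadjusted p under 0.05 (0 in each). The count was 13 without shRB 2, where 17.5% of all rows were higher, 3 without shCON 1 and 2 without shCON 2. Over all rows, 1499 were higher with all libraries, 863 without shCON 1 and 1122 without shCON 2.

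Of 15 tested resection partners and limiters, 1 rose, 0 fell and 14 did not pass, with a median of −0.13. Beside this, 12.8% of all rows were called higher, and a difference from that share was not tested. PAXIP1, an adaptor at break sites, was at 21.2 ± 1.98 CPM in shRB and 16.5 ± 0.96 CPM in shCON (SD, n = 3 each; edgeR adjusted p = 0.039). PAXIP1-AS2 on the opposite strand covers 13.4% of the exonic bases of PAXIP1, so its count is uncertain. RNF168, a ubiquitin ligase that recruits resection blockers, was at 59.3 ± 3.44 CPM in shRB and 51.3 ± 1.36 CPM in shCON, and did not pass (edgeR adjusted p = 0.083). NBN, the partner of MRE11, was at 57.5 ± 11.6 CPM in shRB and 71.1 ± 8.28 CPM in shCON (edgeR adjusted p = 0.11). At an unadjusted p under 0.05 NBN alone was lower (1 gene), and DESeq2 and limma-voom called 0 lower. NBN passed as lower with no filter on low counts (edgeR adjusted p = 0.011), with the replicate block (0.0019), with the GC trend removed (0.018) and with both (0.011), and its adjusted p was 0.067 to 0.35 with a library left out. The PAXIP1 call was lost on leaving out any one library other than shRB 2, and 2 of the list rose without shRB 2.

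Among 13 tested genes for other RecQ helicases and joint-molecule enzymes, 1 rose, 0 fell and 12 did not pass (median 0.02), beside 12.8% of all rows called higher. EME1, a subunit of a junction-cutting nuclease, was at 26.1 ± 2.18 CPM in shRB and 19.9 ± 2.27 CPM in shCON (SD, n = 3 each; edgeR adjusted p = 0.024). It overlaps LRRC59 over 23.1% of its exons and lost its call without shRB 3, shCON 1 or shCON 2. RTEL1, an anti-recombinase helicase, was at 19.3 ± 2.07 CPM in shRB and 23.8 ± 0.67 CPM in shCON, and EME2 at 2.81 ± 0.34 CPM in shRB and 3.68 ± 0.12 CPM in shCON (edgeR adjusted p = 0.068 and 0.17). RTEL1 was the 1 gene lower at an unadjusted p under 0.05, with 0 lower by DESeq2 or limma-voom. It passed as lower with the replicate block (edgeR adjusted p = 0.019), with the GC trend removed (0.012), with both (0.009) and without shRB 2 (0.011), and its adjusted p was 0.12 to 0.25 without any other single library. An annotated same-strand gene not used here covers 85.4% of RTEL1. The RecQ relatives RECQL (log2 fold change 0.03) and RECQL5 (0.02), both named after their values were seen, changed by less than their errors of 0.14 and 0.10.

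End joining, the route that competes with resection, had 4 of 17 tested genes that rose, 1 that fell and 12 that missed the threshold, around a median of 0.07, where 12.8% of all rows rose and 12.5% fell. PARP1, a break sensor, was at 486.1 ± 11.1 CPM in shRB and 334.4 ± 5.55 CPM in shCON (SD, n = 3 each; edgeR adjusted p = 6.5e-05). PAXX, a partner of Ku, was at 91.2 ± 8.13 CPM in shRB and 67.8 ± 3.92 CPM in shCON (edgeR adjusted p = 0.0029), and XRCC6, a subunit of Ku, at 788.6 ± 44.3 CPM in shRB and 659.2 ± 17.1 CPM in shCON (edgeR adjusted p = 0.018). The XRCC6 call was lost without shCON 1, shCON 2 or shCON 3 (edgeR adjusted p of 0.061 to 0.073). POLQ, the polymerase of the end-joining route that uses resected ends, also rose (13.4 ± 1.08 CPM in shRB and 9.77 ± 0.72 CPM in shCON), and the fall was in APLF, with 12, 0 and 1 counts in shRB 1 to 3 and 41, 13 and 6 in shCON 1 to 3. Both were named after their values were seen, and the APLF groups overlap. Without shCON 1, shCON 2 or shCON 3, 2 of the list rose, and the lower count was 0 in each of these fits and without shRB 3 and 3 without shRB 2.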

How the data were processed

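Raw counts of reads were deposited by the authors as whole numbers, 1 per Ensembl transcript ID in each of the 6 libraries. The submitters' processing notes list STAR, HOMER, edgeR and hg19 with no version or role. How reads were assigned, and whether strand was used, is not stated in the labels. Of 22279 IDs, 22182 matched GENCODE release 29 (22104 genes). That annotation is on another build and served for names, chromosomes, gene order, exon overlap, lengths and GC content only. The 97 unmatched IDs held 0.377% of counts and stayed in the fit.

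Rows passing filterByExpr (minimum count 10, minimum total 15) were scaled by TMM and tested in edgeR 4.0.16 under R 4.3.3 (quasi-likelihood F test, group as the only term, Benjamini-Hochberg threshold 0.05). The SE of a log2 fold change is its size over the square root of F. Ratios used a prior of 0.5 counts. The procedure was tested on simulated data that held no GC trend. It recovered 24% of 1.25-fold changes, 80% of 1.5-fold changes and 94% of 2-fold changes, so small changes could be missed. Pairs of libraries within a group differed beyond counting error (2.23 to 11.4 as chi-square over its degrees of freedom), so none was a copy. Intervals and SEs come from 3 libraries a group. The 16 alternative fits included DESeq2 1.42.0, limma-voom (limma 3.58.1), other scalings and filters, a GC offset, the replicate block and each library left out. The text names every member, RB1, the 3 genes with the smallest p in each pathway list and the 5 rows most like EXO1; other genes are marked where named, and some genes that the rule or the marker list holds are not reported here. The members and lists were chosen with earlier results of these data known.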

Additional observations from a re-analysis of the deposited data

How the results depend on the processing

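Depth limits the low transcripts: BLM rests on 26 to 79 counts a library. EXO1 and RMI2 kept direction and call in all 16 alternatives, and no alternative made any of the 9 genes pass as lower. DESeq2 called 3 of the 9 higher, and leaving out 1 library gave 2 to 8. RBBP8 turned to −0.029 without shRB 3 (−0.029 to 0.368 over the left-out libraries). WRN turned to 0.072 without shRB 2 (−0.174 to 0.072 over the left-out libraries), 0.021 with the GC offset and 0.018 with the GC offset and block. The cause of these moves was not tested.

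Over all rows, leaving out 1 library gave 863 to 2074 higher and 912 to 1956 lower, and the GC offset 2714 higher (2869 with the block). For strand exchange genes, the higher count was 10 without a filter, 15 with the GC offset, 15 with the offset and block, and 2 to 13 with a library left out, and the lower count 1 without a filter and 1 with the offset and block. For resection partners, the higher count was 0 with library totals alone, 0 under DESeq2, 3 with the GC offset, 3 with the offset and block, and 0 to 2 with a library left out, and the lower count 1 without a filter, 1 with the GC offset and 1 with the offset and block. For other RecQ and joint-molecule genes, the higher count was 2 with the GC offset, 2 with the offset and block, and 0 to 1 with a library left out, and the lower count 1 with the GC offset, 1 with the offset and block, and 0 to 1 with a library left out. Their median turned to −0.11 without shRB 1, −0.04 without shCON 1, −0.08 without shCON 2, 0.000 with the GC offset and −0.006 with the offset and block, and lay between −0.113 and 0.048 over the left-out libraries. For end joining, the higher count was 7 with the GC offset, 7 with the offset and block, and 2 to 4 with a library left out, and the lower count 0 with library totals alone, 2 without a filter, 0 under DESeq2, 3 with the GC offset, 3 with the offset and block, and 0 to 3 with a library left out.

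The replicate numbers are shared between groups, and same-numbered libraries deviated together at a Pearson r of 0.23, 0.35 and 0.00. shRB 1 and shRB 2 each correlated best with the control of the same number. For shRB 2 the r was −0.37 with shCON 1 and −0.02 with shCON 3. shRB 3 correlated best with shCON 1 (0.27), so the numbers were not taken as pairs in the main fit. With the replicate number as a block, 6 of the 9 genes passed as higher (RMI1 added, at 0.23), and over all rows 2202 were higher and 2294 lower. The block gave 13 strand exchange genes higher and 1 lower, 3 resection partners higher and 1 lower, 1 of the other RecQ and joint-molecule genes lower, and 3 end joining genes lower. For the ratios, the block cannot move the value in this balanced design, and the exact sign-flip p was 0.25, the smallest that 3 pairs allow, for each but MRE11 over RBBP8 (p = 1). With a library left out, the difference ranged from 0.575 to 0.673 for EXO1 over DNA2, 0.382 to 0.677 for RMI2 over RMI1, 0.181 to 0.317 for BLM over TOP3A, 0.506 to 0.898 for BLM over WRN and −0.087 to 0.168 for MRE11 over RBBP8, and the exact permutation p of the first 4 was 0.1 or 0.2.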
